A study of Homo sapiens with 8 samples.

Results

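Small noncoding RNAs of the nucleus and nucleolus are described here by the chromatin of the windows that carry their names. Members were chosen by name alone: a window on chromosomes 1 to 22 belonged if its feature was called U1 to U99, 7SK, Y_RNA, 5S_rRNA or a snoU, SNORA, SNORD, SCARNA, RNU or ACA symbol. This gave 1758 windows of 38157, under 176 names and 1729 Ensembl identifiers. Of these, 1665 were described from Rfam, a database of RNA families matched by sequence, and 93 carried a locus symbol from HGNC, the gene naming committee. A window runs from 2000 bases before to 100 bases after a start position on hg19, and 1704 of the member windows had this width of 2100 bases. The other 54 were wider, up to 11288 bases. The position of the RNA itself is not in the tables, and each window bears the name of some overlapping Ensembl gene, so it can also begin another transcript.

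The cells were SiHa, a long-established cervical squamous carcinoma line, seeded in a transwell, a chamber with a membrane whose pores let cells pass. After 10 h, cells that had crossed (migrated) and cells that had not (non-migrated) were collected apart. From each fraction, an input library of sonicated chromatin and a chromatin immunoprecipitation (ChIP) library for H3K9me3, trimethylated lysine 9 of histone H3, were sequenced in 2 paired sets. This made 4 groups with n = 2 and 8 libraries, all from 1 cell line with no genetic change stated, and no RNA was measured, so markers of the cell type could not be read. Set 1 was made with a gel-extraction kit and deduplicated, and set 2, called a second biological replicate, with beads and another kit, so the kit differs between sets but not between fractions. The title of the migrated H3K9me3 library of set 1 gives replicate 1 and its description replicate 2, and the title was followed. Reads in windows ranged from 88028, in that library, to 684949 in set 1 and from 984835 to 1729061 in set 2.

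H3K9me3 marks constitutive heterochromatin and silent repeats, and is laid down by enzymes such as SUV39H1 and SETDB1. U1, U2, U4, U5 and U6 are the RNAs of the major spliceosome, which removes introns. U7 directs the 3′ cutting of histone messenger RNAs, 7SK holds back the elongation factor P-TEFb, Y RNAs bind the Ro60 protein, and 5S is a ribosomal RNA. Many box C/D small nucleolar RNAs (snoRNAs) guide methylation of ribosomal RNA, many box H/ACA snoRNAs guide pseudouridine formation, and small Cajal body RNAs (SCARNA) guide the same changes in spliceosomal RNAs. By name, 163 windows of the box C/D class are snoU13, 47 are U3 and 12 are U8, to which the methylation role is not assigned here. RNA polymerase III makes U6, 7SK, Y and 5S RNA, and most human sequences resembling these RNAs are pseudogene copies scattered over the genome.

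The member windows carried more H3K9me3 than the promoter windows as a whole. In a limma fit over all windows, 399 of 1654 tested members (24.1%) were enriched over input and 192 (11.6%) lay below input, at an adjusted p of 0.05. Among all 36440 tested windows, 15.8% were enriched and 35.2% lay below. The median member stood at log2 0.26 over input and the median of all tested windows at -0.35, on a scale whose zero is set by the normalization of library sizes. Enrichment of at least 2-fold was called at 276 of 1654 members, against 4142 of all 36440 tested windows. At least 4-fold was called at 15 members, against 417 of all windows, so the members did not stand out at this size. Members made up 4.60% of window reads in the non-migrated input of set 1 and 6.15% in its H3K9me3 library, and 4.51% and 5.96% in the migrated pair. In set 2 the shares were 3.43% and 4.99% in non-migrated cells and 3.59% and 5.31% in migrated cells. The H3K9me3 share was the higher one in all 4 pairs, and the 95% Wilson intervals, which cover counting error only, did not overlap within any pair: the closest were 4.46% to 4.56% in input against 5.80% to 6.12% in H3K9me3, for migrated cells of set 1. In all 4 pairs 513 members (31.0%) lay above input and 231 below, against 20.1% and 34.9% of all tested windows.

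The size of these counts depended on the scaling and on single libraries. With the deposited constants in place of the normalization, 13 members were enriched and 522 lay below, while the median over all tested windows became -1.30. The enriched share was then 0.786% of members and 0.933% of all windows. The enriched count was 669 when migrated H3K9me3 of set 1 was left out, the library whose replicate number is in doubt, 263 without the non-migrated input and 209 without the migrated input of set 1, 809 without set 1 and 15 of 550 tested members without set 2. The count below input was 115 without the migrated input of set 1, 85 without the migrated input and 79 without the non-migrated input of set 2, and 16 without set 2. In set 1 alone, 2.73% of members and 2.86% of all windows were enriched. In each of these omissions the share of all tested windows moved in the same direction as that of the members. The median of the members minus the median of all tested windows was 0.61, and it stayed above 0 in every setting tried, from 0.15 in set 1 alone to 0.64. It was 0.64 without migrated H3K9me3 of set 1 and 0.59 without set 1. Without the non-migrated and the migrated input it was 0.61 and 0.56 for set 1, and 0.57 and 0.60 for set 2.

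The RNA classes differed in level. Over the 12 classes with at least 10 tested windows, U1 had the highest median, at log2 0.57, with 22 of 53 tested windows enriched (41.5%) and 2 below. The 5S_rRNA windows followed with a median of 0.47 and 41 of 128 enriched, and the 7SK windows with 0.43 and 39 of 129. Of the 7SK windows 5 lay below input (3.88%), of the 5S_rRNA windows 10 (7.81%). U7 windows had a median of 0.35 with 14 of 59 enriched, and both snoRNA classes had medians of 0.34, with 63 of 266 box C/D windows (23.7%) and 30 of 122 box H/ACA windows (24.6%) enriched. U5 windows numbered 13 tested, 4 of them enriched and 3 below, with a median of 0.34.

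The largest class, U6, lay lower, with a median of 0.15, 118 of 522 tested windows enriched (22.6%) and 69 below (13.2%). U4 windows had a median of 0.12 and 12 of 40 enriched. Y_RNA windows had a median of 0.07, and nearly as many lay below input, 42, as were enriched, 48 of 268 (17.9%). The 12 tested SCARNA windows had a median of -0.05 with 2 enriched, and the 32 U2 windows a median of -0.07 with 4 enriched and 4 below. None of the 6 windows of minor spliceosomal RNAs was enriched, and 1 lay below. As a comparison, 126 tested microRNA windows of the autosomes had 40 enriched (31.7%) and a median of 0.21. Of these 40, 17 came from a single stretch of chromosome 19 described below, where 17 of 18 tested microRNA windows were enriched.

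**Figure D1:**
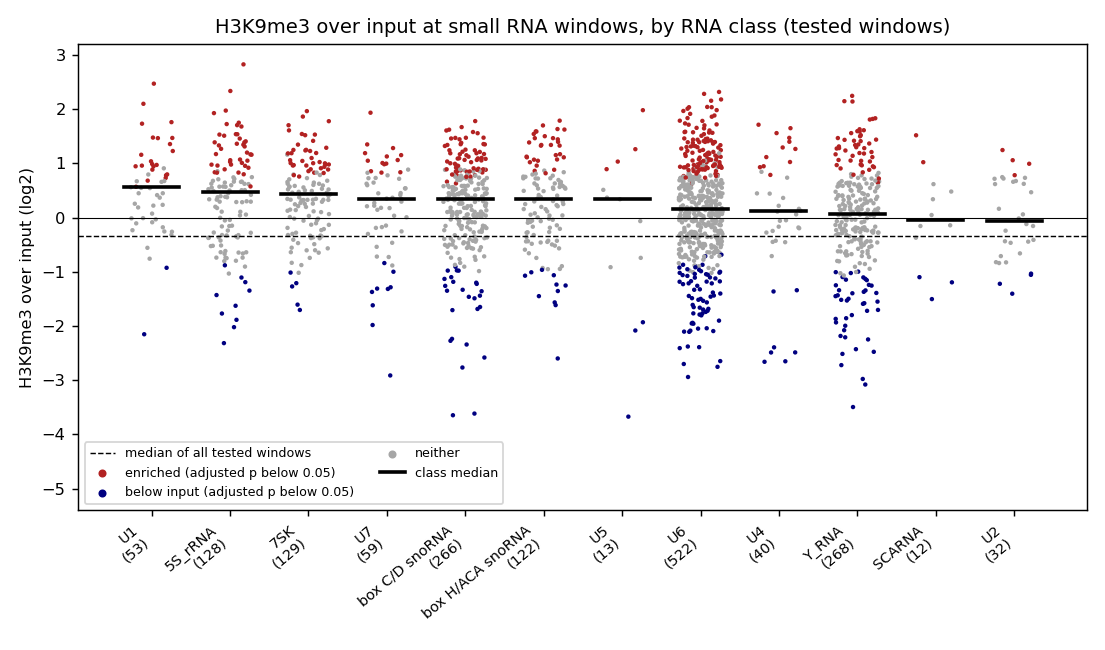
H3K9me3 over input (log2, vertical axis) of each tested window in the 12 RNA classes with at least 10 tested windows, with the number tested in brackets. Black bars are class medians, red and blue points passed an adjusted p of 0.05 above or below input, and the dashed line is the median of all tested windows at -0.35. Each of the 12 medians lies above that line, from 0.57 for U1 to -0.07 for U2.

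No test between classes was run, because windows are not replicates, and with 2 sets the smallest two-sided p from flipping the signs of sets would be 0.5. The order was therefore compared across the 4 pairs of ChIP and input libraries. Relative to the median of all tested windows, U1 stood at 0.82 and 0.78 in the non-migrated and migrated pair of set 1 and at 0.90 and 1.04 in set 2. U2 stood at 0.44, 0.30, 0.08 and 0.43 in the same order, and Y_RNA at 0.44, 0.38, 0.42 and 0.46. When set 1 was fitted alone, on the fewer windows that pass its filter, Y_RNA stood at -0.15 and SCARNA at -0.06, below the median of all tested windows, while the other 10 classes stayed above it. U1 was among the 3 highest classes in all 4 pairs and lay above 10 of the other 11 classes in every pair; its median equalled that of box H/ACA snoRNAs in the migrated pair of set 1 and was higher in the other 3. U2 was among the 3 lowest in all 4 pairs and Y_RNA in 3. Of 66 pairs of classes, 34 kept 1 sign in all 4 library pairs, and the other 32 did not. U1 exceeded Y_RNA by 0.38 to 0.58 and U6 by 0.34 to 0.42.

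**Figure D2:**
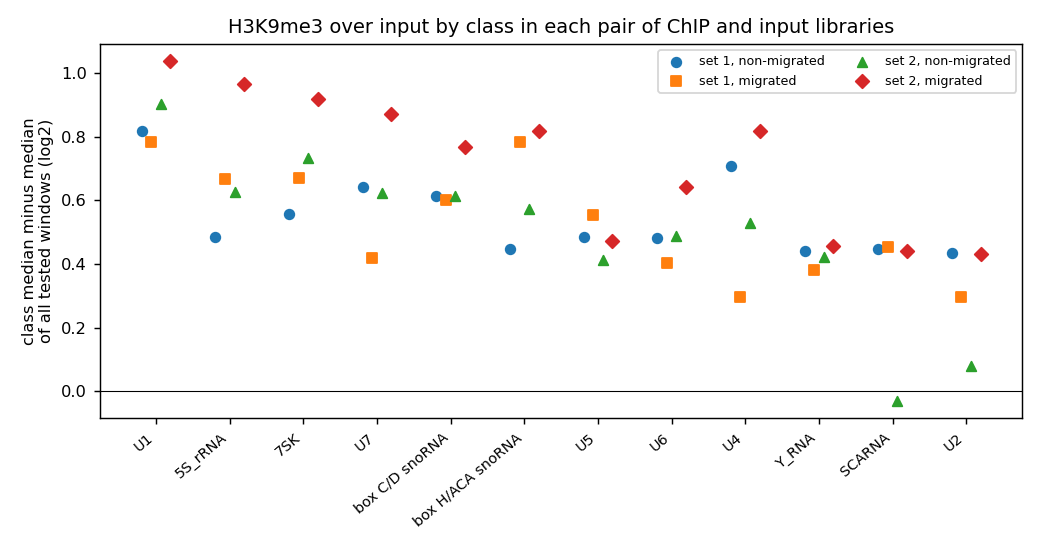
Class median of H3K9me3 over input minus the median of all tested windows (log2, vertical axis) in each of the 4 pairs of ChIP and input libraries, for the 12 classes in order of the fitted median. U1 lies between 0.78 and 1.04 in all pairs and Y_RNA between 0.38 and 0.46, while U4 spreads from 0.30 to 0.82.

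Over all tested windows the enriched share fell without either input of set 1, without migrated H3K9me3 of set 2 and in set 1 alone. It rose without migrated H3K9me3 of set 1 and without set 1. With median-of-ratios scaling 13.8% of all tested windows were enriched, against 15.8% in the main fit. The U1 count changed with single libraries too. It was 9 without the migrated input and 12 without the non-migrated input of set 1, 14 without the ChIP library of migrated cells in set 2, 37 without set 1, 1 of 20 tested without set 2, and 13 with median-of-ratios scaling. The class also lost the largest share of windows to the filter on low counts, of the 12 classes: 18 of 71 were not tested (25.4%), against 5.92% of all members, and 15 of these 18 were on chromosome 1, where the U1 genes lie in clusters of close copies. Among the tested U1 windows, 6 of 12 on chromosome 1 and 16 of 41 elsewhere were enriched. For 7SK the count was 17 without the migrated input and 25 without the non-migrated input of set 1, and 62 when migrated H3K9me3 of set 1 was left out. For 5S_rRNA it was 23 and 26 without the same inputs, for Y_RNA 28 without the migrated input of set 1 and 88 when migrated H3K9me3 of set 1 was left out, and for U6 71 and 210.

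Windows are described next with their reads in the order non-migrated set 1, migrated set 1, non-migrated set 2 and migrated set 2, first for input and then for H3K9me3. To be named, a called window needed 1 sign in all 4 pairs and at least 20 reads over both input libraries of set 2. Under this rule the largest value was at a 5S_rRNA window at chr16:34978360-34989648, one of the wide ones. It held 28, 62, 263 and 254 input reads and 60, 58, 829 and 832 H3K9me3 reads. Scaled for library size, H3K9me3 was high in all 4 pairs, at log2 2.22, 2.63, 2.13 and 2.47. The fit gave 2.33 with a standard error of 0.15 (5.04-fold, adjusted p = 7.85e-14). Its neighbours within 500 kb had a median of 1.92.

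A U6 window at chr2:125744796-125746896 held 5, 8, 34 and 34 input reads and 8, 11, 96 and 105 H3K9me3 reads, and stood at log2 2.32 ± 0.34 (standard error; adjusted p = 1.65e-06). The U6 window at chr12:133814924-133817024 held 9, 10, 47 and 38 against 19, 11, 107 and 114 reads, at 2.28 ± 0.29 (adjusted p = 3.28e-07). A U6 window at chr7:62471847-62473947 stood at 2.18 ± 0.25 and its neighbours at a median of 1.97, while one at chr1:238488988-238491088 stood at 2.15 ± 0.28 with neighbours at 1.19. All 4 pairs were above input at each of these windows. In the order given, they lie 54204, 243, 40762 and 49551 bases from the nearest window of another feature. Those on chromosomes 2 and 12 had neighbours at medians of 1.17 and 1.07. The window on chromosome 12 overlaps a second enriched window of the same identifier, at 1.86.

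Y_RNA windows supplied 3 of the 8 highest eligible values although the class median was near 0. One at chr19:12199061-12201161 overlaps a window of the zinc finger gene ZNF788. It held 5, 16, 25 and 26 input reads and 16, 9, 74 and 79 H3K9me3 reads, and stood at log2 2.24 ± 0.31, with neighbours at a median of 1.54. The other two stood apart from their neighbours. The window at chr2:121406849-121408949 held 15, 17, 26 and 32 against 17, 11, 84 and 129 reads, at 2.15 ± 0.28 with neighbours at -0.22, and the window at chr1:17482692-17484792 held 10, 8, 33 and 36 against 21, 10, 91 and 56 reads, at 2.14 ± 0.31 with neighbours at -0.93. Of the 8 highest eligible windows, 3 lost their call in set 1 alone: the U6 window at chr1:238488988 and the Y_RNA windows at chr19:12199061 and chr2:121406849.

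Under the same rule, the highest called windows of the other classes ranged from 2.10 to 1.24. They were a U1 window at chr1:149146779-149149995 (2.10 ± 0.30), the U5 pseudogene RNU5B-6P on chromosome 10 (1.98 ± 0.34), a 7SK window on chromosome 8 (1.96 ± 0.33) and a U7 window at chr7:57292708-57294808 (1.93 ± 0.32). A SNORA40 window at chr7:99547656-99549756 held 8, 31, 51 and 58 input reads and 18, 11, 134 and 138 H3K9me3 reads, and stood at 1.79 ± 0.26 among neighbours at -0.94. The U4 window at chr1:223545164-223547264 stood at 1.71 ± 0.29 among neighbours at -0.99. A SNORD112 window on chromosome 13 (1.78 ± 0.34), SCARNA11 on chromosome 1 (1.52 ± 0.27), whose window overlaps one of PRDM2, and the U2 pseudogene RNU2-3P on chromosome 15 (1.24 ± 0.30) were the highest eligible windows of their classes. Neighbours of the U7, U1, RNU2-3P, SCARNA11 and 7SK windows had medians of 1.92, 0.99, 0.98, 0.86 and 0.82, and those of the SNORD112 window -0.14. RNU5B-6P had too few tested neighbours for a median. The calls of all but the U1 window were lost in set 1 alone and with the deposited constants, and that of the U1 window in set 1 alone. RNU2-3P was also lost without the migrated H3K9me3 library of set 2.

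At the other end lay windows almost free of H3K9me3 reads. RNU5D-1, a U5 gene at chr1:45196742-45198842, held 23, 25, 38 and 39 input reads and 0, 0, 2 and 1 H3K9me3 reads, the lowest value of all members at log2 -3.67 ± 0.48 (adjusted p = 3.50e-07). Pooled over libraries, 3 H3K9me3 reads against 125 input reads gave a ratio of 0.0433, with an exact 95% interval from counting error of 0.00882 to 0.130. SNORD60 at chr16:2205006-2207106, which overlaps a window of RAB26, held 9, 18, 104 and 74 against 0, 0, 4 and 1 reads, at -3.65 ± 0.47. A snoU13 window at chr2:219049705-219051805 held 12, 9, 37 and 34 input reads and 1 H3K9me3 read in all, a ratio of 0.0196 with an interval of 0.000492 to 0.112. With so few ChIP reads, the fitted values depend on the 0.5 added to each count. Neighbours also lay low, at medians of -1.22 for RNU5D-1, -1.55 for SNORD60 and -1.03 for the snoU13 window.

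Y_RNA windows also supplied 3 of the 8 lowest eligible values. The window at chr17:41149924-41152024 held 15, 26, 53 and 45 input reads and 0, 0, 10 and 0 H3K9me3 reads, so that all 10 came from 1 library, and stood at -3.49 ± 0.50. Those at chr20:2433663-2435763 and chr14:23321837-23323937 stood at -3.08 ± 0.43 and -2.98 ± 0.48. A U6 window at chr4:71568740-71570840 held 5, 13, 24 and 28 against 0, 0, 3 and 0 reads, a pooled ratio of 0.0774 (0.0156 to 0.236), and a U7 window at chr5:142922052-142924152 held 18, 22, 31 and 35 against 4, 0, 3 and 0 reads, at -2.91 ± 0.44. In the order given, neighbours of the Y_RNA, U6 and U7 windows had medians of -1.56, -0.91, -1.26, -0.15 and -0.28. The lowest windows of the other classes under the rule follow, with the value and then the neighbours' median in brackets. They were the U4 gene RNU4-2 (-2.66, -1.67), SNORA7B (-2.60, -1.48) and a 5S_rRNA window on chromosome 20 (-2.32, -0.77). Next came a U1 window on chromosome 2 (-2.15, -1.47), a 7SK window on chromosome 1 (-1.70, -0.64), SCARNA17 on chromosome 1 (-1.50, -1.42) and a U2 window on chromosome 2 (-1.22, -1.28). The calls of the last 4 depended on single libraries: that of the U1 window was lost without the non-migrated input of set 2, that of 7SK without the migrated input of set 2 or the non-migrated input of set 1, that of SCARNA17 without 1 of 3 libraries (the migrated input or migrated H3K9me3 of set 2, or the non-migrated H3K9me3 of set 1), and that of the U2 window in 9 of 17 settings.

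Windows whose symbol RefSeq lists as a gene lay lower than windows whose symbol it lists as a pseudogene. Of the 93 windows with a locus symbol, 23 matched a small RNA gene in RefSeq and 68 a pseudogene, by symbol or older symbol. RNU1-10P and RNU3P3, despite their pseudogene-like symbols, are among the 23. Positions were not compared, so the type of each window was not checked. Of the genes 13 could be tested, of which 8 lay below input and 2 were enriched, with a median of log2 -1.62 (0.326-fold). Of the 63 tested pseudogenes 8 lay below and 17 were enriched, with a median of 0.34. The pseudogene windows lay in less crowded regions: the median number of promoter windows within 500 kb was 13 around them and 22 around the genes. In regions with over 20 such windows, 6 of 8 gene windows and 6 of 14 pseudogene windows lay below input, with medians of -2.59 and -0.63. Among windows other than members, 45.5% lay below input with 21 to 40 such windows and 48.8% with more, at medians of -0.76 and -0.87. The difference of the medians was -1.95 and ranged from -2.55 with the stricter filter to -0.50 over the settings, the last in set 1 alone with 6 genes tested. The gene count below input ran from 6 to 10 without single libraries, and the pseudogene count was 3 without the migrated input of set 2, 4 without the migrated input of set 1 or the non-migrated input of set 2, 5 without any single one of the other 3 libraries of set 1, and 19 with the deposited constants. This grouping was chosen after values were seen, and no test of the difference was run.

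**Figure D3:**
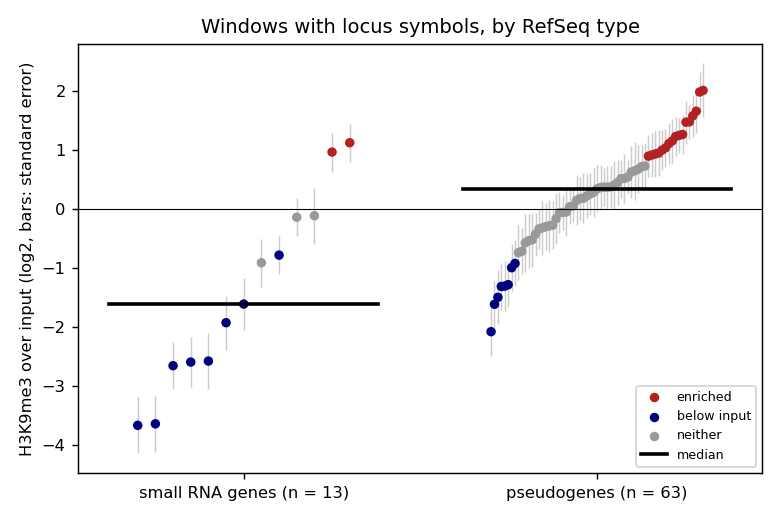
H3K9me3 over input (log2, vertical axis, bars are standard errors) of tested member windows with a locus symbol. They are sorted by value within RefSeq small RNA genes (n = 13) and pseudogenes (n = 63), typed by symbol. The median is -1.62 for genes, of which 8 lie below input, and 0.34 for pseudogenes.

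Of 21 symbols of loci known to be expressed in human cells, 7 were in the tables. Windows were found by symbol alone, so whether each lies at an expressed copy was not checked. RNU4-2, which encodes a U4 RNA of the spliceosome, had 25, 36, 98 and 98 input reads and 1, 1, 7 and 9 H3K9me3 reads, below input in all 4 pairs, at log2 -2.66 ± 0.40 (adjusted p = 2.56e-06). RNU5B-1, a U5 gene, had 9, 23, 31 and 38 against 0, 2, 6 and 5 reads, at -1.93 ± 0.46 (adjusted p = 0.000732), and its call was lost without the non-migrated H3K9me3 library of set 1. RNU6ATAC, the U6-like RNA of the minor spliceosome, had 18, 23, 126 and 137 against 3, 6, 38 and 27 reads, at -0.79 ± 0.32 (adjusted p = 0.0420). The migrated pair of set 1 lay above input, at 0.87, and the other 3 below. The call was lost in 11 of 19 settings, among them the omission of any library but the migrated H3K9me3 of set 1 and the non-migrated H3K9me3 of set 2. The window named RNU6-2, at chr10:13257269-13259369, went the other way. Its 9, 16, 27 and 31 input reads and 9, 6, 31 and 28 H3K9me3 reads gave 0.96 ± 0.33 (adjusted p = 0.0149), above input in all 4 pairs. That call was lost in 6 of 19 settings: without either input of set 1, in set 1 alone, with no replicate block, with the stricter filter and with the deposited constants. SCARNA2, a guide RNA of the Cajal body, was at -0.14 (adjusted p = 0.733). Neighbours had medians of -1.67 for RNU4-2, -1.41 for RNU5B-1, -0.59 for RNU6ATAC, -0.78 for RNU6-2 and -0.85 for SCARNA2. RNU1-1, with 37 reads in all, was not tested, and SNORD3A had no read in any library.

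Of the 104 members that were not tested, 31 had no read in any of the 8 libraries. They include the windows of SNORD3A, SNORD3B-1, SNORD3B-2, SNORD3C and SNORD3D, the U3 snoRNA genes between positions 18963225 and 19095558 of chromosome 17, and 8 U1 windows. Of the 23 windows matched to RefSeq genes by symbol, 9 had no read. A lack of input reads says nothing about H3K9me3: the sources used here do not say how reads matching several close copies were placed.

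The surroundings of a window went with its value. Members with at most 2 promoter windows within 500 kb were enriched in 35 of 86 cases (40.7%), and the share fell to 13.9% with 21 to 40 windows. Other promoter windows showed a like trend, from 42.5% to 10.3%. The share below input was smaller among members than among other windows in each of the 6 bins, for example 4.68% (18 of 385) against 24.2% with 6 to 10 windows. The enriched share was higher among members in the 4 bins from 6 windows up, and slightly lower in the 2 sparsest. In the most crowded bin 28.4% of members (27 of 95) were enriched against 10.0% of other windows. Of these 27, 12 were on chromosome 19, and off chromosome 19 the share was 18.5% (15 of 81) against 8.26%. Median input depth was 31 reads for members and 40 for all windows in each input library of set 2.

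**Figure D4:**
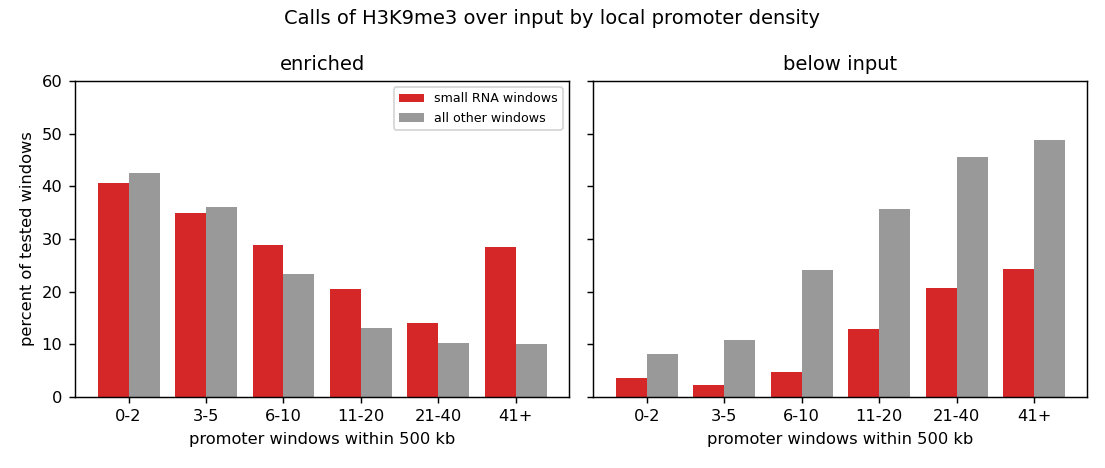
Percent of tested windows enriched (left) and below input (right) by the number of promoter windows within 500 kb, for small RNA windows and for all other windows. The enriched share of small RNA windows falls from 40.7% to 13.9% and is 28.4% in the most crowded bin, and the share below input is smaller than that of other windows in every bin.

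For 1541 members with at least 3 tested neighbours of other names within 500 kb, the member value followed the neighbours' median loosely, with a Spearman rho of 0.36 and a Pearson r of 0.37 across windows, which share libraries and are not independent. The member lay above that median in 1093 cases (70.9%), by 0.50 at the median. Of the 386 members with the lowest neighbours 13.7% were enriched, and of the 385 with the highest neighbours 42.1%. By class, the median excess over the neighbours was 0.77 for U1, 0.73 for SCARNA, 0.67 for 7SK and 0.61 for U4. It was 0.56 for box C/D snoRNAs, 0.55 for U7 and for box H/ACA snoRNAs, 0.52 for Y_RNA, 0.41 for U6, 0.38 for 5S_rRNA, 0.16 for U2 and -0.03 for U5. The order differs from that of the class levels. Neighbours were lowest for SCARNA, U4, U5 and Y_RNA, with medians of -0.94, -0.74, -0.72 and -0.61. Those of U7 and box H/ACA snoRNAs were close, at -0.60 and -0.57. Of 40 members with at least 5 zinc finger gene windows within 500 kb, 22 were enriched (55.0%) with a median of 0.94, and 19 of the 40 were on chromosome 19. With 1 to 4 such windows 19 of 114 were enriched (16.7%, median 0.02), and with none 358 of 1500 (23.9%, median 0.27).

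Of 6 runs of at least 5 member windows with at most 200 kb between successive starts, 4 could be tested, and 1 of them, a run of U6 windows on chromosome 19, was enriched throughout. The other 3 held no enriched window: 0 of 6 on chromosome 4, with 3 below, 0 of 5 on chromosome 6 and 0 of 6 on chromosome 8. Between chr19:54154939 and position 54271886, a stretch of 117 kb holding the primate-specific microRNA cluster of chromosome 19, there were 11 U6 windows under 7 identifiers. All 11 were called enriched, at log2 0.94 to 1.98 with a median of 1.51. Over the run, input reads summed to 192, 328, 691 and 669 and H3K9me3 reads to 213, 113, 1415 and 1289. The microRNA windows among them, which include MIR512-1, MIR515-1 and MIR498, had a median of 1.60 with 17 of 18 enriched. Several of the U6 windows overlap each other, so these are fewer than 11 independent places. Leaving out single libraries gave 9 to 11 calls, set 1 alone gave 1 and the deposited constants 0. Without the run, 107 of 511 U6 windows (20.9%) were enriched, and chromosome 19 members outside it had 9 of 22 enriched with a median of 0.42.

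**Figure D5:**
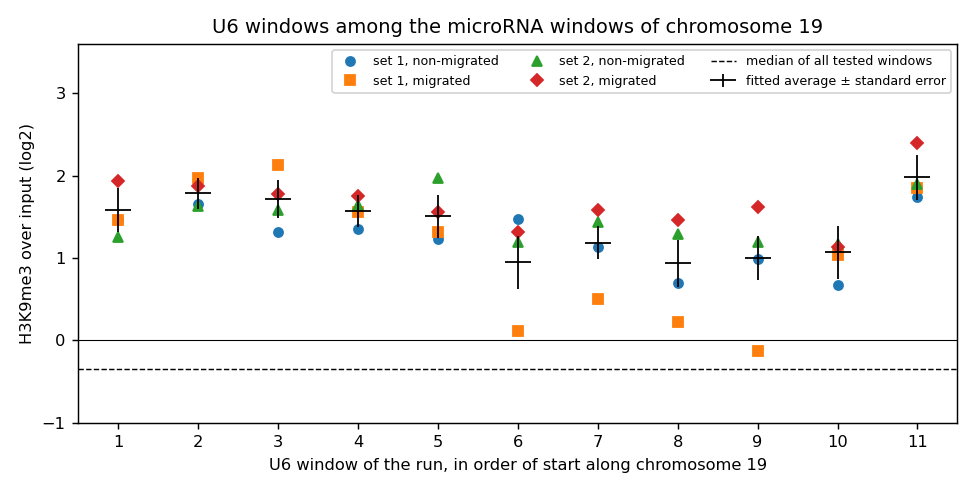
H3K9me3 over input (log2, vertical axis) of the 11 U6 windows of the run on chromosome 19, in order of start, in each of the 4 library pairs, with the fitted average and its standard error in black. The fitted averages lie between 0.94 and 1.98, above the dashed median of all tested windows at -0.35.

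Some names had a pair of windows for 1 identifier. In 27 such pairs both were tested, and in all 27 they overlapped and lay on opposite strands. The values within a pair differed by 0.27 at the median; both were below input in 10 pairs and both enriched in 6, of which 4 belong to the run on chromosome 19. The 55 tested windows with a shared identifier had 24 below and 16 enriched with a median of -0.61, and those that overlapped a window of another feature had 12 of 41 below with a median of -0.35. The 1560 windows with neither property had 156 below (10.0%) and 377 enriched (24.2%), with a median of 0.29.

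Migrated and non-migrated cells were compared through the product of fraction and ChIP, the change in H3K9me3 after correction for each fraction's input. With limma 0 of 1654 members passed in either direction, as did 0 of all windows (0% higher and 0% lower), and the smallest adjusted p over all windows was 0.999. The quasi-Poisson model also called 0 members. At an unadjusted p under 0.05 there were 45 members (2.72%), 26 higher and 19 lower in migrated cells, against 3.52% of all windows. The median standard error of the change was 0.63 on the log2 scale, and that of the average over input 0.37. No class median of the change exceeded 0.41 in size, the value for the 13 U5 windows, and those of the large classes were 0.00 for U6, -0.07 for Y_RNA and 0.03 for box C/D snoRNAs. The result rested on the set 2 ChIP libraries: leaving out the migrated one, 18 members were called higher and 64 lower, and without the non-migrated one 16 and 39, with the lone remaining library assumed to vary like the other groups. In all windows the shares were then 2.07% and 3.09%, and 1.78% and 2.06%. Without either H3K9me3 library of set 1, 0 members were called higher and 1 lower.

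The windows with the smallest unadjusted p did not pass. A U6 window at chr6:26353164-26355264 held 4, 16, 20 and 37 input reads and 8, 1, 19 and 7 H3K9me3 reads, with a change of -2.22 ± 0.75 (unadjusted p = 0.00533). In set 1 the non-migrated pair stood at 2.05 over input and the migrated pair at -0.73, and in set 2 they stood at 0.40 and -1.56. The U7 window on chromosome 5 named above changed by -2.36 ± 0.89 (unadjusted p = 0.0116), its H3K9me3 reads being 4 and 3 in non-migrated and 0 in both migrated libraries. U6 windows at chr2:35694671-35696771 and chr10:84827727-84829827 changed by 2.08 ± 0.79 and 2.02 ± 0.78 (unadjusted p = 0.0125 and 0.0142). All 4 had an adjusted p of 0.999.

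The protein genes that make and handle these RNAs lay lower than the windows of the RNAs. Of 83 such genes listed, 62 were tested (1 window per gene, the one holding most reads), and 43 lay below input (69.4%) with none enriched, at a median of -1.48. Of all tested windows 35.2% lay below, and 45.5% and 48.8% of windows other than members in the 2 most crowded bins above. Among them were LSM4, a subunit of the ring that binds the U6 tail (-4.40 ± 0.48), SNRPE, a core protein of spliceosomal particles (-3.33 ± 0.44), LARP7, which binds 7SK (-3.05 ± 0.48), POLR3C, a subunit of RNA polymerase III (-2.94 ± 0.46), and FBL, the methyltransferase of box C/D particles (-1.10 ± 0.39). Of 10 tested noncoding hosts of snoRNAs 8 lay below, GAS5 at -1.97 ± 0.33 and SNHG1 at -1.73 ± 0.33. SNHG6 was at 0.16 ± 0.41 (adjusted p = 0.766), and 1 host was enriched: SNHG14, the host of the snoRNA clusters of the Prader-Willi region. It held 108, 206, 900 and 906 input reads and 244, 166, 3084 and 3284 H3K9me3 reads, at 2.40 ± 0.09 (adjusted p = 8.85e-21). The SNHG14 window, chr15:25461764-25496106, is the widest of the 10 tested host windows, so its reads cover a longer stretch than theirs. Its value and standard error are therefore not directly comparable with those of the narrower host windows.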

How the data were processed

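The authors deposited log2 values for promoter windows on hg19, 1 table per set; FastQC 0.11.5, Bowtie2 2.2.9 and SAMtools 1.3 are named in the submitters' processing notes, and the sources used here do not name the counting program. Within a library the deposited log2 values were shifted by 1 constant from log2 of integer read counts, and empty windows were entered as log2 of 0.9. Whole reads were recovered for 100% of values within 0.01. limma 3.58.1 in R 4.3.3 was used on log2 of these reads plus 0.5 per library size scaled by trimmed means of M values (30% of ratios and 5% of levels trimmed), with precision weights. Windows needed 10 reads at median library size in 2 libraries and 15 in total. The model held set, ChIP, fraction, set by ChIP and fraction by ChIP, with 2 residual and 33.2 prior degrees of freedom. Windows were tested together, with Benjamini-Hochberg adjustment. The set was a block because the series calls the sets paired; deviations of same-numbered libraries from group means correlated at 0.147 for H3K9me3 and 0.469 for input across windows.

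Members and lists were chosen with earlier results of these data known. The text names, per class with at least 10 tested windows, the highest and lowest called windows with 1 sign in all pairs and at least 20 input reads over both set 2 libraries, the 8 highest and lowest of all members, known loci, and the 2 smallest p per direction between fractions. RefSeq types and known loci were matched by symbol, not by position. Precision is limited by n = 2 and by 88028 to 1729061 reads per library.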

Additional observations from a re-analysis of the deposited data

How the results depend on the processing

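Enriched members numbered 385 with no replicate block, 23.3% of members against 15.9% of all windows. Members below input numbered 181, 10.9% against 33.8%. For the change between fractions the fit with no replicate block also called 0 in each direction. Counts beyond 1.5 times the main ones were 635 enriched and 125 below with 2 added to each count. With the deposited constants as scaling they were 13 and 522. They were 222 and 71 of 750 tested members with the stricter filter, which tests fewer windows. Enriched shares of members and of all windows were 38.4% and 24.4% with 2 added, and 29.6% and 21.9% with the stricter filter. Shares below were 7.56% and 29.4%, and 9.47% and 29.9%, in the same order. With the deposited constants 31.6% of members and 54.0% of all windows lay below. Without single libraries or sets, enriched members ran from 15 to 809 and those below from 16 to 228, and windows called between fractions from 0 to 18 higher and from 0 to 64 lower. The cause was not tested. The average as a contrast of coefficients, an alternative chosen after seeing the data, gave 296 enriched and 153 below. These were 17.9% and 9.25% of members, against 11.9% and 31.3% of all windows. No named window changed sign with a call. The blocked and unblocked fits differed in the calls of RNU6-2 and the U2 window on chromosome 2. Depth limits set 1, in which 550 members passed the filter on their own.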

Other observations

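One snoRNA name, SNORA31, was picked out after its values were seen. Its 12 tested windows on 9 chromosomes had a median of log2 0.87 over input, with 6 enriched and 1 below. The highest, at chr5:105880366-105882466, held 13, 13, 45 and 45 input reads and 7, 13, 96 and 111 H3K9me3 reads (non-migrated set 1, migrated set 1, non-migrated set 2, migrated set 2), at 1.70 ± 0.31 (limma adjusted p = 3.19e-05). The window below input, at chr13:45910482-45913744, stood at -1.57 ± 0.46. By contrast, snoU13, the most frequent box C/D name, had 30 of 152 tested windows enriched and a median of 0.24.

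The highest member values of all fell outside the naming rule because of few input reads. A 5S_rRNA window on chromosome 5 stood at 2.82 with 1, 0, 8 and 7 input reads and 3, 1, 32 and 18 H3K9me3 reads, and a U1 window on chromosome 1 at 2.47 with 1, 0, 6 and 7 against 2, 2, 14 and 10 reads.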
